A study of Mus musculus with 2 samples.

Results

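Retinoic acid is made from vitamin A and acts through nuclear receptors, and 9 genes of this route were followed here in mouse myoblasts with and without an edit of Gne. They are the retinoic acid carriers Crabp1 and Crabp2, the retinol carrier Rbp4, the retinaldehyde dehydrogenases Aldh1a1, Aldh1a2 and Aldh1a3, and the retinoic acid receptors Rara, Rarb and Rarg. The 9 genes were chosen by their place in this pathway, by gene symbol, from the 21829 genes of the files, at a time when the values of these libraries were already known, so every value below is a description. Each of the 9 symbols was found once.

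Both libraries come from C2C12, an immortalised mouse myoblast line grown in medium with fetal bovine serum. WT is the parental line, and KO carries a CRISPR–Cas9 indel in Gne, the gene of the bifunctional enzyme that starts sialic acid synthesis. KO cells were expanded from single-cell clones, so differences between a clone and its parent cannot be told apart from those of the edit. The data hold 1 library of polyadenylated RNA per line, so no difference has a replicate check and no test was made.

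In cells, retinol is carried by binding proteins and oxidised to retinaldehyde, mainly by Rdh10, and the Aldh1a enzymes oxidise retinaldehyde to retinoic acid. Crabp2 delivers retinoic acid to the receptors, which bind DNA with a retinoid X receptor partner, and Cyp26 enzymes break retinoic acid down. Retinoic acid is known to promote differentiation of cultured myoblasts, and Rarb and Cyp26a1 are classical targets that it induces through repeats of a short motif near their starts.

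That target site is the sequence through which Rarb and Cyp26a1 values are usually read as an output of the pathway, and both starts are shown for that reason. The search used the motifs AGGTCA and also AGTTCA and also GGTTCA and also GGGTCA, placed as a direct repeat of any pair of them with 5 bases between, on either strand, in RefSeq windows of mouse GRCm38.p6 that reach from 250 bases before to 50 bases after a gene start. Of 32851 windows, 32 held such a repeat, a share of 0.0974%. Windows were found for 7 of the 9 genes, 13 in all, and 1 of these, that of Rarb, held it. Crabp2 and Aldh1a3 had no window and were not searched. Of the 65 windows of 48 wider pathway genes, 1 held it, that of Cyp26a1. The 100 bases before each start read as follows from 5′ to 3′ on the strand of the gene, with the repeat in capitals, at chr14:16575477-16575576 on the minus strand for Rarb and chr19:37697708-37697807 on the plus strand for Cyp26a1.
Rarb: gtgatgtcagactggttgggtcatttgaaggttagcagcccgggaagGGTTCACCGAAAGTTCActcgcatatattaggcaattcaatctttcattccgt
Cyp26a1: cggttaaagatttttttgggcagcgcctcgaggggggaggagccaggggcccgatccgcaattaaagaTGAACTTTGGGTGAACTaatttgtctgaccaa
In Rarb the repeat lies 53 to 37 bases before the start and reads with the gene. In Cyp26a1 it lies 32 to 16 bases before the start and is read on the opposite strand, where it is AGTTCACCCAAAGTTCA. The same motifs with spacings of 1 and 2 bases were in 0.222% and 0.268% of all windows and in none of the 13 windows of the 7 genes searched. Of the 65 wider pathway windows 1 held the spacing of 1 base and none that of 2. These matches describe letters in a window, and binding was not measured.

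The values come without a unit. They are read here as FPKM, that is, fragments scaled by transcript length and library depth, although TPM over part of the genes would look alike. They summed to 568410 in WT and 574144 in KO, over 13709 and 13589 genes above 0. Among genes with 1 annotated transcript and a value under 0.2, values multiplied by length gathered at a step that put 1 fragment at about 0.0331 FPKM in WT and 0.0378 FPKM in KO for each kilobase, a ratio of 1.14. Fragment numbers given below for low genes come from this step, and are rough estimates that depend on the transcript length used. Gne itself was 6.67 FPKM in WT and 7.34 FPKM in KO, so its RNA does not tell which library carries the edit, and the libraries are called here KO-labelled and WT-labelled where a direction is drawn. Of 8 myoblast markers 6 passed a mean of 1 FPKM, and their list summed to 246 FPKM in WT and 66.2 FPKM in KO, with Pax7 listed at 0 in both and Myod1 at 0 in the KO-labelled library only. Myod1 was 60.0 FPKM in WT. Des was 97.6 FPKM in WT and 3.84 FPKM in KO, Cdh15 16.6 and 0.701 FPKM and Itga7 47.4 and 28.4 FPKM. Ncam1 differed little, at 14.7 and 13.0 FPKM. Of the markers that passed, only Myf5 was higher in the KO-labelled library, at 9.14 FPKM in WT and 20.3 FPKM in KO. The 5 fibroblast and fibro-adipogenic markers summed to 209 and 161 FPKM, a lower sum that comes from Ly6a alone, at 198 and 146 FPKM. Of the others Pdgfra was 10.8 and 12.3 FPKM, Dcn 0.272 and 1.68 FPKM and Dpt 0.041 and 0.493 FPKM, each higher in the KO-labelled library, and Thy1 was listed at 0 in both. Markers of epithelium, endothelium, adipocytes and retinoid-storing liver cells summed to at most 0.051 FPKM in either library. The leukocyte markers summed to 3.04 FPKM in WT and 1.499 FPKM in KO, of which Cd68 was 2.85 and 1.06 FPKM and Lyz2 0.191 and 0.438 FPKM, with Ptprc and Adgre1 at 0 in both, and the embryonic stem cell markers to 0.107 and 0.455 FPKM. In such bulk RNA, fewer cells of a type and less RNA per cell cannot be told apart, and the part of these marker differences in the retinoid values was not tested.

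The 9 genes fell into an abundant and a nearly silent group. Crabp2, Rara and Rarg had a mean of at least 1 FPKM, the filter used for fold changes, and the other 6 did not, whereas 51.7% of all genes failed it. All 3 abundant genes had somewhat lower values in the KO-labelled library, by log2 fold changes, computed as log2((KO + 1)/(WT + 1)), between -0.34 and -0.14. Of all genes past the filter 49.3% were also lower. None was more than 2-fold higher and none more than 2-fold lower. Among all 10542 genes past the filter, 299 or 2.84% were more than 2-fold higher and 362 or 3.43% more than 2-fold lower in the KO-labelled library. Changes of this size were common, since 32.1% of the genes past the filter changed at least as much as Rarg in either direction. The quartiles of these genes lay at -0.21 and 0.23 and their median at 0.0061. Rara lay between the quartiles, and Crabp2 and Rarg lay below the lower one.

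**Figure D1:**
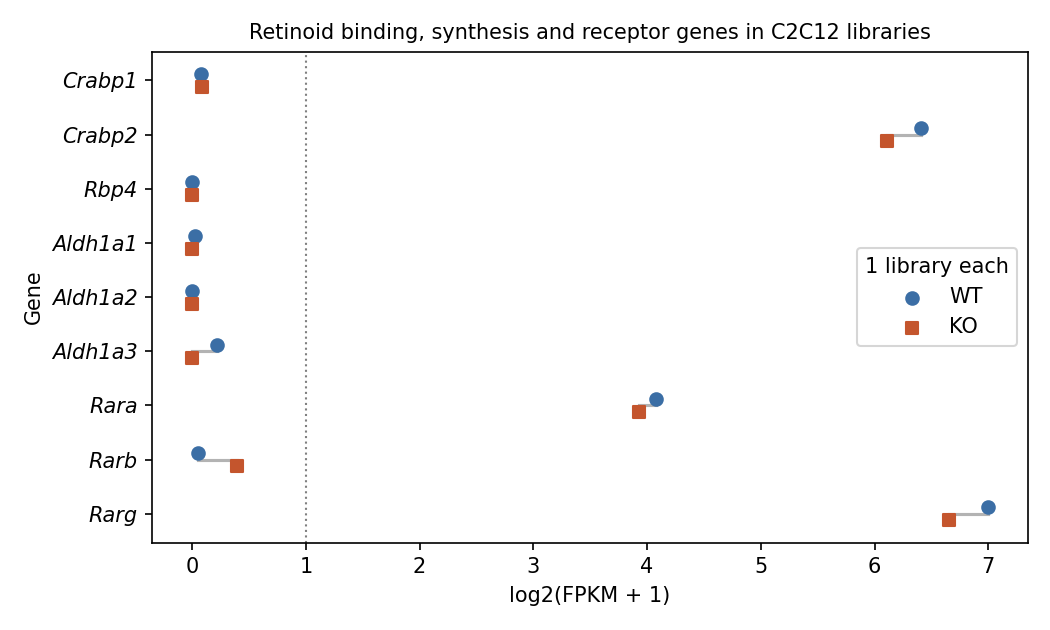
Values of the 9 genes in the WT and KO libraries, as log2(FPKM + 1), with a circle for WT, a square for KO and a dotted line at 1 FPKM. Crabp2, Rara and Rarg stand far to the right with KO slightly below WT, and the other 6 genes lie left of the line.

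Among the carriers, Crabp2 was 84.1 FPKM in WT and 68.0 FPKM in KO, a log2 fold change of -0.30. It ranked 1062 among all genes in WT and 1332 in KO, within the top 4.87% and 6.10%. Crabp2 lies on chromosome 3 of GRCm39, from 87855973 to 87860683. A change of at least this size in either direction was seen in 37.6% of the genes past the filter. Crabp1, the closely related carrier, which is thought to steer retinoic acid toward breakdown rather than to receptors, was 0.056 FPKM in WT and 0.062 FPKM in KO, values that correspond to about 1.03 to 1.5 and 1 to 1.46 fragments. These cells therefore held Crabp2 RNA at 1501 times the Crabp1 value in WT and 1097 times in KO, ratios whose lower term rests on single fragments. Rbp4, which carries retinol in blood plasma and is made mainly by liver and fat, was listed at 0 in both libraries.

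Fabp5, a fatty acid-binding protein that also binds retinoic acid and is described as carrying it to the receptor Ppard, was 104 FPKM in WT and 137 FPKM in KO. Its log2 fold change of 0.39 was opposite in sign to that of Crabp2. Within a library, where depth cancels, Fabp5 had 1.24 times the Crabp2 value in WT and 2.02 times in KO. Both libraries thus held more Fabp5 than Crabp2 RNA per length, and the ratio was larger in the KO-labelled library. Ppard was 27.9 FPKM in WT and 21.7 FPKM in KO, a log2 fold change of -0.35.

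Among the receptors the order of levels per length was Rarg, then Rara, then Rarb in both libraries. Rarg, the receptor most associated with mesenchymal and skeletal tissues, was 127 FPKM in WT and 99.6 FPKM in KO, a log2 fold change of -0.34. It ranked 677 in WT and 882 in KO. Changes at least as large in either direction were seen in 32.1% of genes past the filter. Rara, the broadly expressed receptor, was 15.8 FPKM in WT and 14.2 FPKM in KO, a log2 fold change of -0.14, which 65.2% of genes matched or exceeded in size. Rarg made up 88.9% of the summed values of the 3 receptors in WT and 87.3% in KO, and the sum itself was 142 and 114 FPKM. Rarg was 7.99 times Rara in WT and 6.99 times in KO, so the order was far wider than the difference between the libraries.

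**Figure D2:**
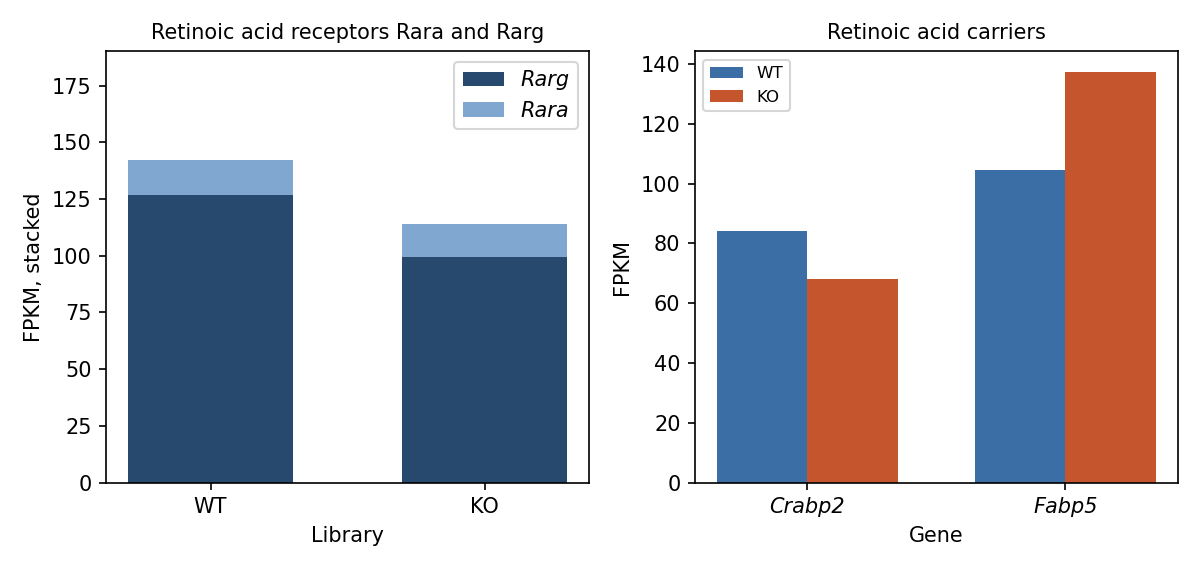
Left, stacked bars of Rarg and Rara FPKM in each library, where Rarb is too low to draw, and right, bars of Crabp2 and Fabp5 FPKM, with 1 library per line and no error. Rarg fills most of each stack, and Fabp5 is higher and Crabp2 lower in KO than in WT.

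Rarb, the receptor that retinoic acid itself induces, was 0.034 FPKM in WT and 0.314 FPKM in KO. These values correspond to about 3.28 and 26.6 fragments over a transcript of 3396 bases. The KO-labelled library held the higher value, and both lie far below 1 FPKM, where the log2 fold change was 0.35 as computed above but 1.63 once the pseudocount was lowered to 0.1. Rarb lies on chromosome 14 of GRCm39, from 5650540 to 6041094. Among receptors, Rarb was 0.0239% of the summed value in WT and 0.275% in KO.

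The 3 retinaldehyde dehydrogenases were nearly silent. Aldh1a1 was 0.018 FPKM in WT, about 2.14 to 3.26 fragments, and listed at 0 in KO. Aldh1a2, the main source of retinoic acid in the embryo, was listed at 0 in both libraries. Aldh1a3 was 0.164 FPKM in WT, about 19 fragments over a transcript of 4028 bases, and was listed at 0 in KO. Aldh1a3, on chromosome 7 of GRCm39 from 66040638 to 66077850, was thus the dehydrogenase with the most RNA in WT, and 1 fragment would have been 0.00987 FPKM in KO. Their sum was 0.182 FPKM in WT and 0 in KO, and the near-identical paralogue Aldh1a7 was listed at 0 in both. With a pseudocount of 0.1 and no filter, settings chosen after the values were seen, 1 of the 9 genes, Rarb, was more than 2-fold higher and 1, Aldh1a3, at -1.40, more than 2-fold lower in the KO-labelled library. Of all 21829 genes, 3.94% were then higher and 4.12% lower, many of them with few fragments.

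Chromosomal position accompanied the Rarg value. Rarg lies on chromosome 15 of GRCm39, from 102143373 to 102165952, and the 89 filtered genes lying less than 5 Mb from it on the chromosome, its neighbours, centred on a log2 fold change of -0.41 (median). After subtraction of that median Rarg was at 0.070, so its lower value went no further than that of its neighbours. The 95 neighbours of Crabp2 had a median of 0.054, which put Crabp2 at -0.35 after subtraction. The 153 neighbours of Rara, on chromosome 11, had a median of -0.045, and Rara was at -0.099 after subtraction. Of the 3 genes Crabp2 was therefore the one with the lowest value relative to its neighbours. By distance over the log2(FPKM + 1) values of the 2 libraries, the genes nearest to Rarg, the gene of the 9 with the lowest fold change, were Eif4a2 at 0.0302, Snu13 at 0.0331 and Dpy30 at 0.0381, and with 2 libraries this says only that their levels were alike. Before subtraction none of the 3 abundant genes was higher in the KO-labelled library, where 49.3% of all genes past the filter were lower.

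**Figure D3:**
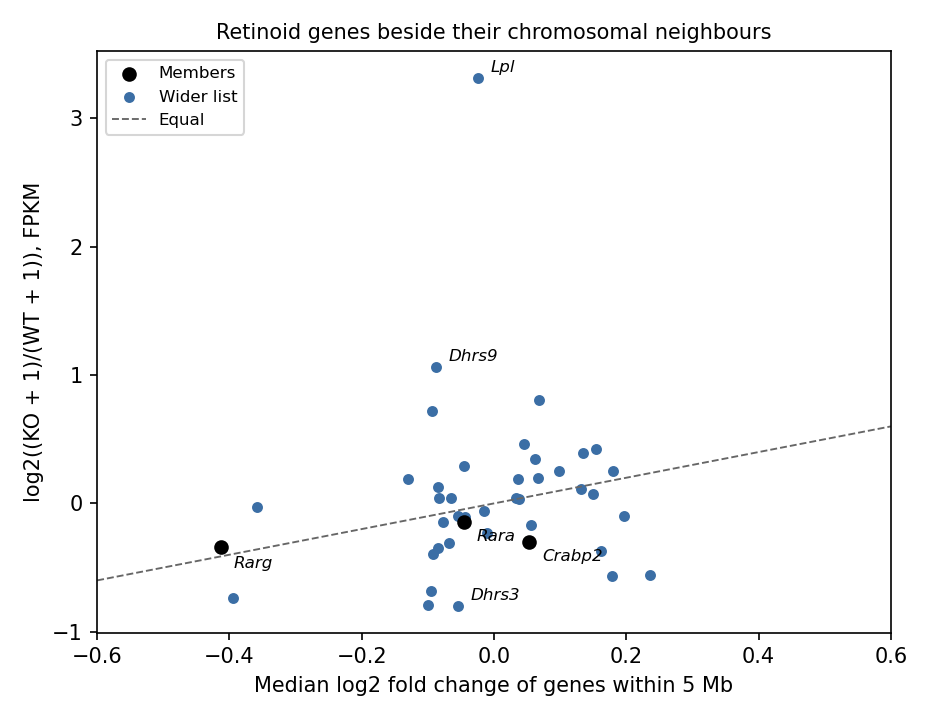
Log2 fold change of each retinoid gene with a mean of at least 1 FPKM against the median log2 fold change of the genes within 5 Mb, with the 3 abundant genes in black, the wider list in blue and a dashed line where both are equal. Rarg lies close to the line at a neighbour median of -0.41, Crabp2 lies below it, and Lpl at 3.32 and Dhrs9 at 1.06 lie far above it.

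A wider list of 67 genes of the pathway was read in the same way, and all 67 were in the files. Of these 39 passed the filter, 21 with a higher and 18 with a lower value in the KO-labelled library, and their median log2 fold change was 0.039, close to the 0.0061 of all genes. More than 2-fold higher were 2 of the 39, Lpl and Dhrs9, and more than 2-fold lower was none, against the 2.84% and 3.43% of all genes given above. No gene of the list was listed at 0 in one library and at 1 FPKM or more in the other.

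In uptake and storage 4 of 11 genes passed the filter. Lpl, lipoprotein lipase, which hydrolyses the triglycerides and also the retinyl esters of circulating lipoproteins, was 0.893 FPKM in WT and 17.8 FPKM in KO. Its log2 fold change of 3.32 was the largest of the list, and the median of its 93 neighbours on chromosome 8 was -0.024. The adipocyte markers Adipoq, Plin1 and Cidec were listed at 0 in both libraries, and the origin of the Lpl difference was not tested. The other 3 genes had lower values in the KO-labelled library, with log2 fold changes of -0.73 for Dgat1, -0.68 for Lipe and -0.096 for Pnpla2. Lipe, hormone-sensitive lipase, was 2.56 FPKM in WT and 1.21 FPKM in KO, a ratio of 0.475 that did not reach 2-fold with the pseudocount of 1. Stra6, the membrane receptor for plasma retinol-binding protein, was 0.043 FPKM in WT and 0.016 FPKM in KO. Lrat, which makes the stored retinyl esters, was listed at 0 in both.

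Enzymes between retinol and retinaldehyde were better represented, with 10 of 16 past the filter, 5 higher and 5 lower in the KO-labelled library. Rdh10, which forms retinaldehyde, was 26.5 FPKM in WT and 33.9 FPKM in KO, a log2 fold change of 0.34. Dhrs3, which reduces retinaldehyde back to retinol, was 2.81 FPKM in WT and 1.19 FPKM in KO, a log2 fold change of -0.80 that did not reach 2-fold on this scale. The ratio of Rdh10 to Dhrs3 within a library was 9.44 in WT and 28.6 in KO, with Rdh10 the higher in both. It describes this pair only, since other enzymes of the group were also abundant. Adh5 was 62.4 FPKM in WT and 74.3 FPKM in KO, and Adh7 53.8 and 36.3 FPKM. Dhrs4 was 40.7 FPKM in WT and 23.1 FPKM in KO, and Rdh11 27.5 and 29.8 FPKM. Dhrs9, a dehydrogenase of the same family, was 1.42 FPKM in WT and 4.04 FPKM in KO, a log2 fold change of 1.06. Both libraries thus held RNA of several enzymes between retinol and retinaldehyde, and next to none of the 3 Aldh1a enzymes followed here. Of 3 other genes listed for retinaldehyde oxidation, only Aox1 passed the filter, at 1.345 FPKM in WT and 1.789 FPKM in KO. Whether retinaldehyde was oxidised in these cells was not measured.

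**Figure D4:**
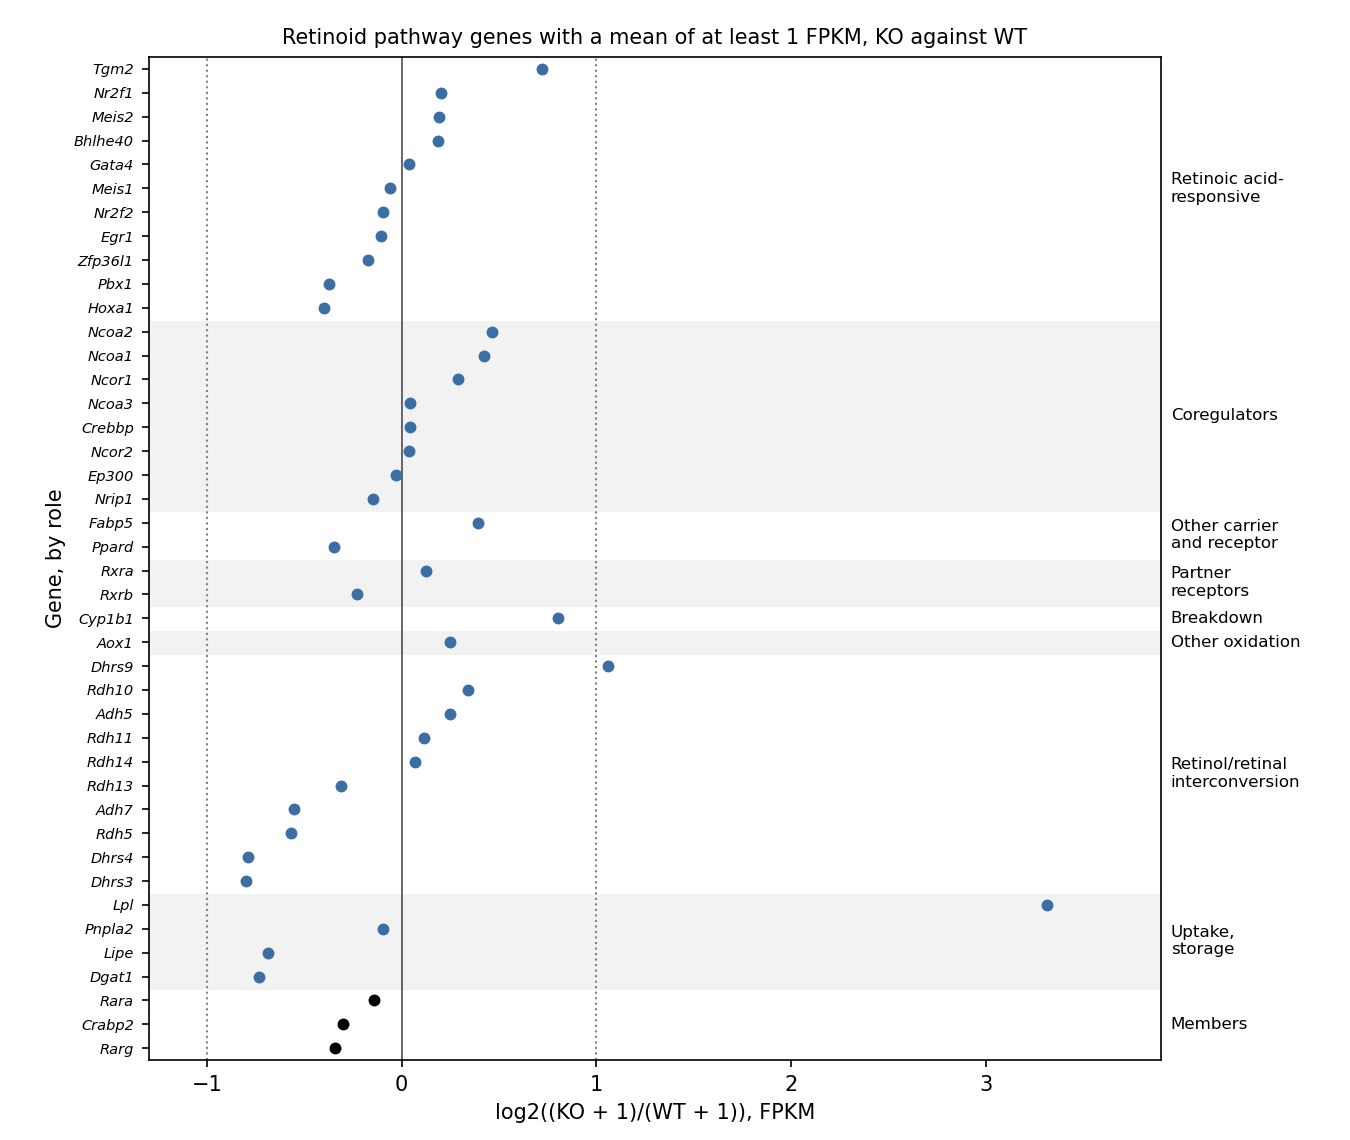
Log2 fold changes, KO against WT, of the 3 abundant genes, in black, and the 39 genes of the wider list with a mean of at least 1 FPKM, in blue, grouped by role, with dotted lines at a 2-fold change. Only Lpl at 3.32 and Dhrs9 at 1.06 lie beyond a dotted line. Cyp1b1, the only gene drawn under breakdown, acts on many other substrates.

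Of the 4 genes listed under breakdown, only Cyp1b1 passed the filter. Cyp1b1 was 29.3 FPKM in WT and 52.0 FPKM in KO, a log2 fold change of 0.80. It is a cytochrome that acts on retinoids among many other substrates, so its value does not measure retinoic acid breakdown. The 3 Cyp26 genes, whose enzymes are the dedicated route of retinoic acid clearance, were all below the filter and summed to 0.855 FPKM in WT and 1.07 FPKM in KO. Cyp26a1, whose start carries the repeat shown above, was 0.377 FPKM in WT and 0.605 FPKM in KO, about 18.2 and 25.6 fragments. Cyp26c1, its neighbour on chromosome 19, was 0.031 FPKM in WT and 0.275 FPKM in KO, about 3.53 and 27.5 fragments. Cyp26b1 went the other way, with 0.447 FPKM in WT and 0.19 FPKM in KO. Both genes with the repeat, Rarb and Cyp26a1, thus had low values in both libraries and the higher one in the KO-labelled library.

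The partner receptors were present. Rxra was 27.0 FPKM in WT and 29.6 FPKM in KO, a log2 fold change of 0.13. Rxrb was 23.7 FPKM in WT and 20.1 FPKM in KO, a log2 fold change of -0.23. Rxrg, typical of differentiated muscle and of some neurons, was listed at 0 in both. The sum of the partner receptors was 50.8 FPKM in WT and 49.7 FPKM in KO, below the sum of the retinoic acid receptors in each library. All 8 coregulators passed the filter, with log2 fold changes from -0.15 to 0.46. Of 18 genes known to respond to retinoic acid 11 passed the filter, 5 higher and 6 lower in the KO-labelled library, between -0.40 and 0.72, with a median of -0.058. The highest of these was Tgm2, a transglutaminase, at 0.983 FPKM in WT and 2.27 FPKM in KO.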

How the data were processed

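The 2 libraries, 1 of WT and 1 of KO C2C12 cells, were grouped by the genotype in the sample descriptions. For each gene symbol the authors deposited a single value per library, read here as FPKM because totals differ between libraries. Low values step with transcript length, as they would in TPM too. No unit is stated beside the values, and mitochondrially encoded genes are not among them. The submitters' processing notes name Trim Galore 0.6.6, STAR 2.7.9a and RSEM 1.3.3 with GRCm38, whereas the methods name GRCm39, and the descriptions and the supplementary methods also differ on library kit and sequencer. Gene symbols were matched to GENCODE vM39 on GRCm39 for positions and transcript lengths, and promoter windows were taken from RefSeq on GRCm38.p6.

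The files have 21853 rows. For 24 rows that repeat a symbol, only the more highly expressed entry was used. Fold changes were log2((KO + 1)/(WT + 1)), filtered on a mean over both libraries of at least 1 FPKM. A 2-fold change means a log2 fold change beyond 1. The median of genes within 5 Mb was taken over genes past the filter, without the gene itself, and 10142 of 10542 genes had one. The value of 1 fragment was the most frequent product of value and transcript length less 200 bases, among 182 genes in WT and 197 in KO with a single transcript over 1000 bases. Of these 46 and 58 lay within 0.25 log2 units of it. Fragment numbers of a gene span its shortest to longest protein-coding transcript that has a consensus coding sequence or is marked as canonical. Read numbers were not used here, and counting intervals are therefore left out.

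The 9 genes, the wider list and the markers were chosen with earlier results of these data known. All 9 were named, and of the wider list those past 2-fold and a set fixed whatever their values, of which 1 is not reported here. Of genes named beyond this, Ppard, Lrat, Cyp26c1, Cyp1b1, Dgat1, Lipe, Pnpla2, Tgm2, Adh5, Adh7, Aox1, Dhrs4 and Rdh11 were picked after their values were seen. Functions were tested on simulated data. Computation used Python 3.11.15 with scipy 1.17.1, pandas 2.3.3 and numpy 2.4.6, and plots used matplotlib 3.10.9.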

Additional observations from a re-analysis of the deposited data

How the results depend on the processing

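No replicate could be left out. No paired analysis was possible because WT and KO share a single replicate number and the result comes from no test. A single gene was taken as moved beyond 0.44, the interquartile range of all log2 fold changes, and a count beyond 1.5 times. With a pseudocount of 0.1 the log2 fold change of Aldh1a3 was -1.40 and that of Rarb 1.63, against -0.22 and 0.35, and both are genes below 1 FPKM, for which the pseudocount sets the size. The other 7 genes stayed within 0.44 under the pseudocounts of 0.1 and 5, scaling by the median ratio of 1.0035, summing of repeated symbols and subtraction of the neighbour median, which turned Rarg from -0.34 to 0.070. Of the wider list 2 genes, Lipe at -1.02 and Dhrs3 at -1.18, became more than 2-fold lower with a pseudocount of 0.1, and Tgm2, at 1.13, became more than 2-fold higher, which made 3 higher genes. Raising the pseudocount to 5 left 1 gene, Lpl, more than 2-fold higher, as did raising the filter to a mean of 5 FPKM. With a pseudocount of 0.1 and no filter together, 1 of the 9 genes was higher and 1 lower, and 5 genes of the wider list were higher and 2 lower. Over all genes, the counts of 299 higher and 362 lower became 102 and 176 at the pseudocount of 5, 145 and 221 under the higher filter, which reads fewer genes, and 860 and 900 with a pseudocount of 0.1 and no filter. Depth limits the 6 low genes, whose values rest on about 26.6 fragments or fewer.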
